A study of Mus musculus with 6 samples.

Results

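The genes described here are 10 genes of MHC class I antigen presentation, taken by symbol from the 53465 genes of the deposited count table. They are the light chain B2m, the classical heavy chains H2-D1 and H2-K1, the peptide transporter subunits Tap1 and Tap2, the loading factor Tapbp, the trimming enzyme Erap1, the immunoproteasome subunits Psmb8 and Psmb9, and the transcriptional activator Nlrc5. All 10 were matched, 9 were counted in 1 library or more, and 6 were abundant enough to be among the 8200 genes tested. RNA was sequenced from ID8, an ovarian cancer model line derived from mouse ovarian surface epithelium, in 3 libraries labelled WT (replicates 4, 5 and 6) and 3 labelled KO (replicates 4, 5 and 6). The series text describes a stable line with the control guide sgNC and one with the guide sgNat10 against Nat10, the RNA acetyltransferase that makes ac4C. The WT label was taken to mean sgNC and the KO label sgNat10. No treatment, time or age is given for either group, and guide and line cannot be told apart. The stated question was which transcripts change with NAT10 and whether they bear on the DNA damage response.

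Class I molecules carry peptides from the cell's own proteins to the surface, where cytotoxic T cells read them. The proteasome cuts proteins into peptides, the TAP transporter moves them into the endoplasmic reticulum, and ERAP1 shortens them. Tapasin (Tapbp), with calreticulin and ERp57, helps an empty heavy chain with its beta-2-microglobulin partner to take up a peptide that fits. Interferon gamma raises the genes of this pathway through IRF1 and NLRC5, and tumour cells often hold them low.

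Library totals ran from 1687466 to 2148715 counts in WT and from 2234305 to 3126208 in KO-labelled libraries, so depth moved with the group. Thinning every library at random to the smallest total gave a B2m estimate of 1.45 on the log2 scale. Random thinning keeps each gene's share of the counts on average, so other differences between the libraries that go with depth were not tested. Nat10 itself stood at 112 ± 53.1 CPM (counts scaled to TMM-adjusted library size) in WT against 106 ± 43.1 CPM in the libraries labelled KO (± SD over n = 3 libraries each; edgeR adjusted p = 0.99996). The targeted gene thus did not pass as lower, and the libraries are called by their labels throughout. The labels do not say that replicates are separate cultures, so the p-values speak of the spread among these 6 libraries, possibly a technical one. Low genes were counted unevenly, with fewer genes at 5 to 9 counts than at 1 to 4 or at 10 to 39 in every library. Genes with 5 to 9 counts numbered 234 to 414 per library in WT against 189 to 230 in KO-labelled libraries. Those with 10 to 39 numbered 1763 to 2919 against 768 to 1201, and those with 1 to 4 numbered 840 to 1015 against 916 to 1530. The 10 to 39 and the 5 to 9 ranges thus differed between the groups without overlap. Of 11 markers of ovarian surface epithelium and mesothelium 8 were tested, and Krt7, Lrrn4 and Cdh1 had few counts in WT and 0 in every KO-labelled library. The summed level of the 11, of which Krt19 was the most abundant, was 6340 to 6840 CPM in WT against 4860 to 5660 CPM in the KO-labelled libraries. Among the 8 tested markers Msln passed as higher and Krt18 and Krt19 as lower, beside 0.402% of all tested genes called in either direction. These calls held in 2, 1 and 4 of the 6 fits with a library left out. Of the 8 markers 2 were higher without overlap and 3 were lower, beside 6.94% and 7.93% of all tested genes. Of 16 leukocyte markers 9 were at 0 in every library and 7 had a count. Cd14 had 18, 58 and 0 counts in WT and 0, 14 and 25 in KO-labelled libraries. Cd68 had 10, 29 and 0 counts in WT and 0 in every KO-labelled library. The 5 endothelial markers summed to at most 6.0 CPM in any library. The summed level of the 16 leukocyte markers was 0 to 43.5 CPM in WT against 0 to 9.62 CPM in the KO-labelled libraries, highest in WT replicate 5. In RNA from whole cultures, fewer cells that express a gene and less RNA of it per cell cannot be told apart.

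The stretch before a RefSeq start site is shown for B2m, H2-D1 and H2-K1 because these are the class I chains among the 10 genes. That of Tap1 is shown because it faces Psmb9 across it. The sequences are the 250 bases before a RefSeq start site in build GRCm38.p6 (the assembly of mm10), 5′ to 3′ on the gene's strand. Of the 10 genes 8 had an entry. The H2-D1 window lies inside the longer GENCODE gene, which begins upstream of the RefSeq start, and H2-K1 has a second RefSeq start whose window, not shown, holds 1 more Y box. Capitals mark matches on either strand to 4 motifs: the core of the interferon-stimulated response element (GAAA, any 2 bases, GAAA), an NF-kB motif (GGG, any 2 bases, TT, any base, CC), the X2 box (TGACG) and the Y box (CCAAT). No motif overlapped another in these 4 windows.
B2m, chr2:122147437-122147686, plus strand: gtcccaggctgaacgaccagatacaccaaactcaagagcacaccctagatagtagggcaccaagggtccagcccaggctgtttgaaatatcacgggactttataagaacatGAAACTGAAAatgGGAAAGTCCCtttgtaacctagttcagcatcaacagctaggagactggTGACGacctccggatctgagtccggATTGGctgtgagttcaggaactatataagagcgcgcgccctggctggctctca
H2-D1, chr17:35262844-35263093, plus strand: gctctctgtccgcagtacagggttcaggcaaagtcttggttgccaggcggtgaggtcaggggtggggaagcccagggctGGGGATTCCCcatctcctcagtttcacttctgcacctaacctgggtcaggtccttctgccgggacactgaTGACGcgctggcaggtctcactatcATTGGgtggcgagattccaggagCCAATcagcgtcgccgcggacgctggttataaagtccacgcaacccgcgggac
H2-K1, chr17:34000348-34000597, minus strand: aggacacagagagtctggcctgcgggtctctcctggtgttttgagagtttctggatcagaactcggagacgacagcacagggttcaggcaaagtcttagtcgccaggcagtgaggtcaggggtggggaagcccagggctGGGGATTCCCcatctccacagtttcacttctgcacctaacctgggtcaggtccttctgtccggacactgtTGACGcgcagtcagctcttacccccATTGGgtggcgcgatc
Tap1, chr17:34187306-34187555, plus strand: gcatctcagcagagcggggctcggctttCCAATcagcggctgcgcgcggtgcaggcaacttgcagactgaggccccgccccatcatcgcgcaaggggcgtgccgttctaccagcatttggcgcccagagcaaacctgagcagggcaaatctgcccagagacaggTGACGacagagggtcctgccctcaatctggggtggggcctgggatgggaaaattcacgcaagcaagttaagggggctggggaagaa

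B2m held all 4 kinds of match, with the interferon element 139 to 130 bases and the NF-kB motif 126 to 117 bases before the start. H2-D1 and H2-K1 held the NF-kB motif, the X2 box and the Y box in the same order, and aligned over 190 bases at 87.4% identity. Tap1 held an X2 box and a Y box. Its window shares 225 bases with that of Psmb9, which is read on the other strand. The Y box and the X2 box of Psmb9 are the same letters as those of Tap1, so each site is counted for both genes. Among the 8 genes the Y box was found in 6, the X2 box in 5, the NF-kB motif in 3 and the interferon element in 1. Of all 32851 start sites in the table these motifs were found in 33.8%, 17.8%, 4.11% and 2.98% of windows of that length. The gamma-activated site (TTC, any 3 bases, GAA) was found in Psmb8 alone of the 8, against 7.02% of all windows. A match is a description of letters and not a binding site.

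Of the class I chains, B2m rose in the KO-labelled libraries, H2-D1 passed as higher in 1 of the 3 tools used, and H2-K1 overlapped between groups. B2m, the light chain shared by all class I molecules (ENSMUSG00000060802, a protein-coding gene on the plus strand of chromosome 2, 122147686 to 122153083 in mm10), had 508, 578 and 671 counts in WT and 2266, 2149 and 2966 in KO-labelled libraries. These were 309, 289 and 388 CPM against 884.0, 920.1 and 920.2 CPM. Every KO-labelled library was above every WT library, and the KO-labelled values lay close together. B2m rose 2.76-fold, a log2 fold change of 1.47 ± 0.20 (SE) with a 95% interval of 1.03 to 1.90 (edgeR quasi-likelihood, Benjamini-Hochberg adjusted p over 8200 genes = 0.00407). The call was lost without WT replicate 5 (adjusted p = 0.0683) and held in the other 13 alternatives, where the edgeR adjusted p ran up to 0.0303 with a library left out.

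H2-D1, a classical heavy chain, which holds the peptide and is read by the T cell receptor (plus strand of chromosome 17, 35262730 to 35267499), had 137, 125 and 208 counts in WT and 593, 548 and 662 in KO-labelled libraries. Its levels were 83.3, 62.5 and 120.3 CPM in WT against 231, 235 and 205 CPM in the KO-labelled libraries. The groups did not overlap. The estimate for H2-D1 was 2.52-fold, a log2 fold change of 1.34 ± 0.35 (SE) with a 95% interval of 0.58 to 2.09. It did not pass in edgeR (adjusted p = 0.192) or limma-voom (0.169), and it passed in DESeq2 (0.00365).

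H2-K1, the other classical heavy chain (minus strand of chromosome 17, 33996017 to 34000347), had 158, 129 and 127 counts in WT and 238, 331 and 428 in KO-labelled libraries. At 96.1, 64.5 and 73.4 CPM against 92.9, 142 and 133 CPM, KO replicate 4 fell within the WT range and the other 2 lay above it. The log2 fold change was 0.65 ± 0.42 (SE), with an interval of -0.24 to 1.54 and an edgeR adjusted p of 0.99996. That interval holds both 0 and the estimate for B2m. Heavy chain genes resemble each other: 12.8% of the 50-base stretches of H2-D1 transcripts and 9.63% of those of H2-K1 also occur in transcripts of other genes, led by other H2 genes, and 3.59% and 0.96% of the 100-base stretches. Reads from those stretches may be split between copies or lost, depending on counting settings not given in the sources used here. B2m shared none.

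**Figure D1:**
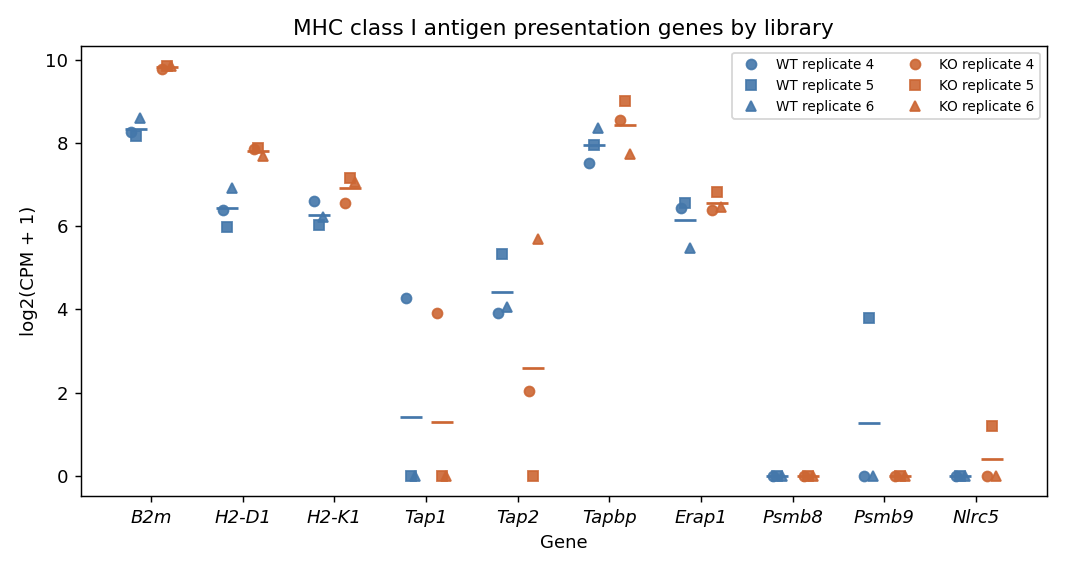
Level of each of the 10 genes in each library, as log2(CPM + 1), with WT in blue and KO-labelled libraries in orange, 1 symbol per replicate number and a bar at the group mean. B2m and H2-D1 are the genes whose groups do not overlap, while Tap1, Psmb8, Psmb9 and Nlrc5 sit at 0 in most libraries.

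Among 8200 tested genes 33 passed in edgeR (0.402% of those tested), 15 of them higher (0.183%) and 18 lower (0.22%), and B2m was the 1 call among the 6 tested class I genes. limma-voom called 0.524% of all genes and B2m among these. DESeq2 called 2.88% of the genes it tested, 1.3% as higher, and B2m and H2-D1 among these. An unadjusted p under 0.05 was found in 6.49% of all genes and in B2m and H2-D1. Groups did not overlap in 14.9% of all tested genes, with KO-labelled libraries higher in 6.94%, as in B2m and H2-D1, and lower in 7.93%.

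The summed level of H2-D1, H2-K1 and the other H2 class I heavy chains (counted were H2-Q4, H2-Q6, H2-T22, H2-T23, H2-M3 and H2-K2), which does not depend on how counted reads were divided among these genes, was 244, 170 and 209 CPM in WT against 335, 445 and 402 CPM in the KO-labelled libraries. The groups did not overlap, at 208 ± 37.0 against 394 ± 55.5 CPM (± SD over n = 3 libraries each), with an exact two-sided permutation p of 0.1, the smallest that 3 against 3 libraries allow. H2-D1 was compared with H2-K1 inside each library per kilobase of exon. Their log2 ratio was 0.34 ± 0.49 in WT against 1.08 ± 0.37 in the KO-labelled libraries, with WT replicate 6 at 0.900 inside the KO-labelled range (exact permutation p = 0.2). The log2 ratio of B2m to H2-D1 and H2-K1 together was 2.66 ± 0.20 in WT against 3.04 ± 0.087 in the KO-labelled libraries (± SD over n = 3 libraries each; exact permutation p = 0.1). Its groups did not overlap, from 2.47 to 2.86 in WT and from 2.94 to 3.1 in KO-labelled libraries.

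**Figure D2:**
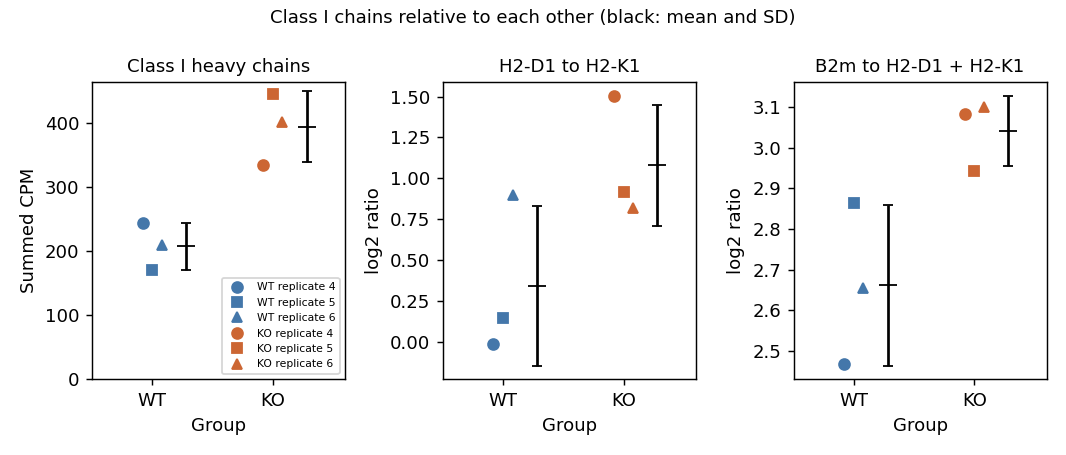
Summed CPM of the class I heavy chains, log2 ratio of H2-D1 to H2-K1 and log2 ratio of B2m to H2-D1 plus H2-K1 (both per kilobase of exon) in each library, with the mean and SD of 3 libraries in black. The sum and the B2m ratio are higher in all KO-labelled libraries (394 against 208 CPM, and 3.04 against 2.66), while the H2-D1 to H2-K1 ratio overlaps.

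The transport, loading and trimming genes gave no call, which does not show that they did not differ. Tapbp, which encodes tapasin, the bridge between TAP and the heavy chain, had 182, 249 and 331 CPM in WT against 378, 519 and 214 CPM in the KO-labelled libraries. KO replicate 6 fell inside the WT range and the other 2 were above it. The log2 fold change was 0.54 ± 0.33 (SE; interval -0.16 to 1.25; edgeR adjusted p = 0.995). Of the exon length of Tapbp (chromosome 17, 33915899 to 33929292) 29.0% is overlapped by exons of Gm19412 and Zbtb22, mostly on the other strand, with a strand setting not given in the sources used here. Without strand, reads from the overlapped exons cannot be told apart.

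Erap1, the aminopeptidase that trims peptides inside the endoplasmic reticulum, had 85.7, 93.9 and 43.4 CPM in WT against 82.7, 113 and 87.2 CPM in the KO-labelled libraries. The groups overlapped, with WT replicate 6 low, and the log2 fold change was 0.34 ± 0.47 (SE; interval -0.67 to 1.35; edgeR adjusted p = 0.99996). Exons of Cast on the other strand overlap 11.5% of its exon length (chromosome 13, 74639568 to 74693201). Without WT replicate 6 the log2 fold change went to 0.07.

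The TAP subunits form the channel as a pair, and each was counted in some libraries only. Tap2 (chromosome 17, 34203527 to 34216321) had 23, 79 and 27 counts in WT and 8, 0 and 165 in KO-labelled libraries. The KO-labelled libraries thus held both the lowest and the highest value, and the log2 fold change of -0.34 ± 1.80 (SE) has an interval of -4.20 to 3.51 (edgeR adjusted p = 0.99996). It became -3.83 without KO replicate 6 and 0.18, 0.26 and 0.29 without KO replicate 4, KO replicate 5 and WT replicate 5, so no direction can be given. Tap1 (chromosome 17, 34187553 to 34197225), too low to test, had 30 counts in WT replicate 4, 36 in KO replicate 4 and 0 in the other 4 libraries. Exons of other genes overlap 18.5% of Tap2 and 3.87% of Tap1, the latter from Psmb9.

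**Figure D3:**
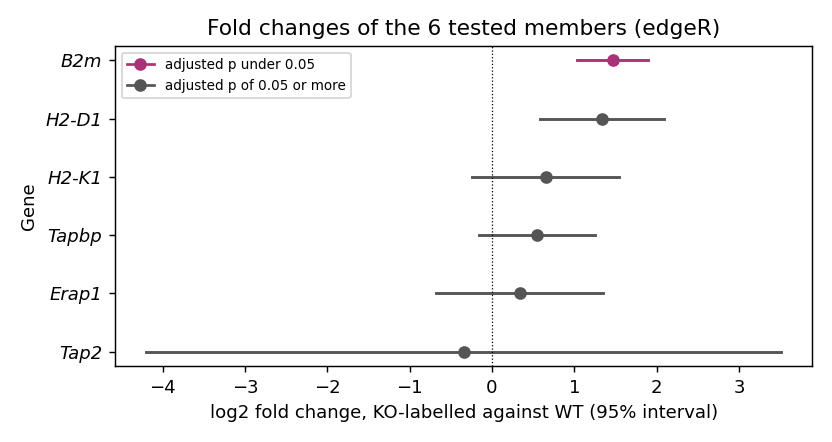
Log2 fold change of KO-labelled against WT libraries for the 6 tested genes, with the 95% interval of the edgeR fit, purple where the adjusted p is under 0.05. The interval of B2m (1.03 to 1.90) and that of H2-D1 (0.58 to 2.09) lie above 0, and that of Tap2 spans -4.20 to 3.51.

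Psmb8, Psmb9 and Nlrc5 had no count in most libraries of either group. Psmb8 (chromosome 17, 34197721 to 34201454), the inducible chymotrypsin-like subunit, had no count in any library, and a count of 0 over all 6 allows up to 0.221 CPM at a floor of 3 counts. Psmb9 (chromosome 17, 34181987 to 34187764), which takes the place of Psmb6, had 26 counts in WT replicate 5 and 0 in every other library. Nlrc5 (chromosome 8, 94434356 to 94527272), the NLR protein that switches on class I promoters, had 3 counts in KO replicate 5 and 0 elsewhere. For Nlrc5, 0 counts over the WT group allow up to 0.531 CPM. These limits cover counting error alone, since amplified copies of a read are no independent molecules.

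Per kilobase of exon, B2m was the most abundant of the 10 genes in both groups. In WT it stood at 382 ± 60.9 CPM per kilobase, followed by Tapbp at 69.95 ± 20.6, H2-D1 at 34.4 ± 11.4, H2-K1 at 26.5 ± 5.55, Erap1 at 10.2 ± 3.73 and Tap2 at 6.09 ± 3.77 (SD, n = 3). H2-D1 and H2-K1 did not differ beyond their spread in WT, nor did Erap1 and Tap2. In KO-labelled libraries the levels were 1056 ± 24.3 for B2m, 102 ± 42.0 for Tapbp, 86.8 ± 6.21 for H2-D1, 41.7 ± 8.86 for H2-K1, 12.9 ± 2.22 for Erap1 and 4.79 ± 7.59 for Tap2. There H2-D1 lay above H2-K1 by more than the spread, while Tapbp overlapped H2-D1 and Erap1 overlapped Tap2. Tap1, Psmb8, Psmb9 and Nlrc5 averaged at most 1.18 CPM per kilobase in either group. The order of the first 6 genes was the same in both groups.

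Of 19 other class I and class I-like heavy chains 7 had no count in any library and 4 were tested, none of which passed in edgeR or DESeq2 or had an unadjusted p under 0.05. H2-T23, which encodes Qa-1, the ligand of the NK receptor NKG2A, had 46.8, 37.5 and 0 CPM in WT against 0, 43.3 and 49.6 CPM in the KO-labelled libraries. Both groups held a library at 0 (log2 fold change 0.14, interval -3.39 to 3.67). H2-M3, which presents formylated peptides, had a log2 fold change of 0.55 with an interval of -4.60 to 5.69. The iron regulator Hfe and the protein C receptor Procr had 0.26 and -0.33.

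The list of loading complex partners and aminopeptidases is wider than the complex itself. Of its 8 tested genes 1 passed, against 0.22% of all tested genes called lower. The estimate was above 0 in 1 of the 8, against 49% of all tested genes, and Uggt1, Lnpep, Bcap31, Ganab, Canx and Pdia3 overlapped between groups. Hspa5, the chaperone BiP, passed as lower, at 4109, 4183 and 4573 CPM in WT against 2286, 2059 and 2188 CPM in the KO-labelled libraries. The call on Hspa5 (log2 fold change -0.98, edgeR adjusted p = 0.00404) was lost without WT replicate 5 and without WT replicate 6. Calr, calreticulin, which holds the heavy chain in the loading complex, went from 3023 ± 305 to 1861 ± 284 CPM without overlap (± SD over n = 3 libraries each). It did not pass in edgeR (adjusted p = 0.0742), and it passed as lower in DESeq2 (0.00103) and limma-voom (0.00133). Of the 8 genes 2, Hspa5 and Calr, were lower without overlap, beside 7.93% of all tested genes. Canx, calnexin, which binds the newly made heavy chain, had a log2 fold change of -0.07 ± 0.20 (SE) and Pdia3, ERp57, one of -0.15 ± 0.17. The median of the list was -0.14, beside 0.60 for the 6 tested class I genes and -0.02 for all tested genes.

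Proteasome partners gave no call among 8 tested, with a median log2 fold change of 0.12. Psmb10, the remaining catalytic subunit of the immunoproteasome, was chosen after its values were seen. It had 0, 19 and 0 counts in WT and 329, 73 and 18 in KO-labelled libraries, with KO replicate 6 below WT replicate 5 in CPM (5.58 against 9.49; edgeR adjusted p = 0.659, DESeq2 0.0748). The constitutive subunit Psmb6 stood at 105 ± 7.57 CPM in WT against 104.5 ± 49.6 in the KO-labelled libraries, and Psmb7 at 249 ± 11.6 and 216 ± 68.5 CPM (± SD over n = 3 libraries each). The activator subunits Psme1 and Psme3 had log2 fold changes of 0.31 ± 0.47 and 0.17 ± 0.46 (SE). None of 7 cytosolic peptidases passed in edgeR or DESeq2, and 1 had an unadjusted p under 0.05, beside 6.49% of all tested genes. That was Nrdc, nardilysin, at 465 ± 125 against 300.0 ± 49.7 CPM. Tpp2, tripeptidyl peptidase II, went the other way without overlap, from 203 ± 19.3 to 299.6 ± 49.9 CPM (edgeR adjusted p = 0.8002), and Npepps and Ide had log2 fold changes of 0.24 and -0.36. Of the 7 peptidases 1 was higher without overlap and 2 were lower, beside 6.94% and 7.93% of all tested genes.

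Of 13 transcription factors of class I genes 9 were tested and none passed in edgeR or DESeq2 or had an unadjusted p under 0.05. Irf1, the interferon-induced factor that acts on class I promoters, had 117, 110.4 and 171 CPM in WT against 90.9, 107 and 152 CPM in the KO-labelled libraries. Its groups overlapped (log2 fold change -0.19, interval -1.01 to 0.63). Irf2, Rela and Nfkb1 had log2 fold changes of -1.02 ± 0.58, 0.48 ± 0.50 and -0.28 ± 0.76 (SE). The median of the list was -0.21.

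Among interferon receptors and JAK-STAT genes 10 of 12 were tested, with a median log2 fold change of 0.57. Of these 1 passed, as lower, beside 0.22% of all tested genes called lower. Jak1, the kinase shared by both interferon receptors, had 365, 373 and 398 CPM in WT against 171, 114 and 61.4 CPM in the KO-labelled libraries (log2 fold change -1.72, edgeR adjusted p = 0.0489). That call held in 1 of the 6 fits with a library left out. It was lost with DESeq2 size factors (edgeR adjusted p = 0.0553), library totals (0.054) and a 1 CPM filter (0.0539). It held without a low-count filter, with a replicate block and after thinning. Jak1 also passed as lower in DESeq2 (adjusted p = 4.12e-05) and limma-voom (0.00488). Jak2, the partner kinase at the interferon gamma receptor, chosen after its values were seen, had 0, 9 and 0 counts in WT and 34, 23 and 176 in KO-labelled libraries (edgeR adjusted p = 0.99). It met the low-count filter through the KO-labelled libraries alone. Its log2 fold change of 4.04, the highest of the list, is part of the median of 0.57, which is thus partly raised by that filter. Stat2, Ptpn2 and Ifngr1, the ligand-binding chain for interferon gamma, had log2 fold changes of 1.24, -0.23 and 1.37, and their groups overlapped.

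None of 20 tested interferon-stimulated genes passed in edgeR or DESeq2, of 32 listed, and 2, Rnf213 and Eif2ak2, had an unadjusted p under 0.05, beside 6.49% of all tested genes. The estimate was above 0 in 15 of the 20, against 49% of all tested genes, and the median was 0.68. In 2 of them every KO-labelled library was above every WT library, Usp18 and Irgm1, beside 6.94% of all tested genes. Counts this small are not read as a difference from the background. Usp18 and Eif2ak2 were chosen after their values were seen. Irgm1, an interferon-induced GTPase, had 63.2, 113 and 119.7 CPM in WT against 167, 168 and 144 CPM in the KO-labelled libraries (edgeR adjusted p = 0.919). Rnf213, an interferon-induced ubiquitin ligase and the most abundant of the list, stood at 1166 ± 127 CPM in WT against 1585 ± 456 CPM in the KO-labelled libraries (± SD over n = 3 libraries each; edgeR adjusted p = 0.766). Ddx58 and Trim25, of the RIG-I sensor pathway, had log2 fold changes of -0.12 and -0.30. The MHC class II pathway was barely seen: of 6 genes 2 had no count, none could be tested, and their summed level was at most 7.90 CPM in any library.

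**Figure D4:**
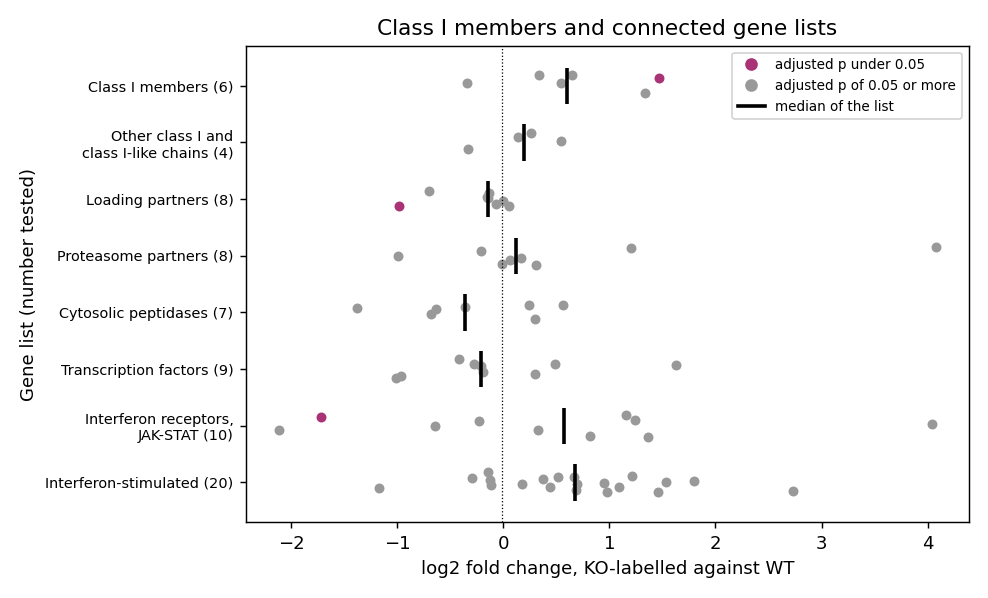
Log2 fold change of KO-labelled against WT libraries for every tested gene of the class I set and of 7 connected lists, purple where the edgeR adjusted p is under 0.05, with the list's median as a black bar and the median of all tested genes (-0.02) as a dotted line. The medians are 0.60 for the class I set, 0.68 for interferon-stimulated genes and -0.14 for loading partners, and the calls are B2m (higher), Hspa5 and Jak1 (lower).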

How the data were processed

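Per the labels' protocols, poly(A) RNA from TRIzol extracts was fragmented and copied with random hexamers. Tools named by the authors, per the submitters' processing notes, were featureCounts 1.5.0-p3, HISAT2 2.0.5 and fastp, with build mm10. The deposited values are raw counts per Ensembl gene. Settings, strand and annotation release were not given in the sources used here. Symbols, positions and exon lengths are from GENCODE M21, which names 53274 of the 53465 genes.

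Counts were tested with edgeR 4.0.16 (R 4.3.3; filterByExpr with a minimum count of 10, TMM, robust quasi-likelihood, group as the only term, two-sided, Benjamini-Hochberg over 8200 genes, threshold 0.05). CPM values use TMM-scaled library sizes. Alternatives were DESeq2 1.42.0, limma-voom (limma 3.58.1), other scalings, other filters, a threshold of 0.01, a replicate block, leaving out each library and, chosen after seeing the data, thinning every library to 1687466 counts. The edgeR fit was tested on simulated data with known changes.

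The members and lists were chosen with earlier results of these data known. Named from each list are the 4 tested genes with the highest mean CPM and every gene past the threshold. From the markers of cell identity, genes past the threshold and some with low counts are named. Aligned windows used a global alignment with free ends. A listed gene is not reported here.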

Additional observations from a re-analysis of the deposited data

How the results depend on the processing

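The log2 fold changes of the 6 tested class I genes kept their direction in 81 of 84 values under the alternatives, and the 3 exceptions were those of Tap2 without WT replicate 5 (0.29), KO replicate 4 (0.18) and KO replicate 5 (0.26), which ran from -3.83 to 0.29 with a library left out. B2m ran from 1.38 to 1.6, H2-D1 from 1.14 to 1.62, H2-K1 from 0.53 to 0.83 and Tapbp from 0.23 to 0.82 with a library left out. The number of these genes called was 1, with 2 in DESeq2 and 0 to 1 with a library left out. Over all genes the 33 calls became 234 in DESeq2, 91 without a low-count filter, 16 at a threshold of 0.01 and 6 to 29 with a library left out. With library totals 44 genes passed, 28 of them higher, and the median log2 fold change of all tested genes went from -0.02 to 0.09. The summed heavy chains differed by 186 CPM, and by 161 to 216 CPM with a library left out, with the same sign under every other alternative run on them. Replicate numbers gave no sign of pairing: deviations of same-numbered libraries correlated at -0.017, -0.0026 and -0.0066. These are unweighted over all tested genes, many of them low, so noise could hide a pairing. The replicate block gave 38 calls, 1 of them a class I gene. Tap1, Psmb9 and Nlrc5, removed by the low-count filter, entered the fit without it, where 1 of 9 class I genes was called. Psmb8 had no count to test.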

Other observations

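On chromosome 17 between Tapbp and H2-D1, 29 other genes were tested, with a median log2 fold change of -0.04, 13 estimates above 0 and no call in edgeR or DESeq2. Within 1 Mb of B2m on chromosome 2, 13 other genes were tested, with a median of -0.60, 5 estimates above 0 and no call in either tool.

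The 3 genes whose log2(CPM + 1) followed that of B2m most closely over the 6 libraries were Aebp1, Abt1 and Def8 (Pearson r of 0.992, 0.987 and 0.984). The libraries form separate groups in all of them, so each r mostly restates the difference between the groups. Aebp1, a secreted matrix-binding protein, had 288, 302 and 321 CPM in WT and 638, 665 and 685 CPM in KO-labelled libraries. Abt1 had 0, 1 and 1 counts in WT and 81, 75 and 116 in KO-labelled libraries. Def8 had no count in WT and 56, 75 and 88 counts in KO-labelled libraries. Abt1 and Def8 did not pass in edgeR (adjusted p = 0.479 and 0.455) or limma-voom (0.347 and 0.255), and they passed in DESeq2 (0.00513 and 0.00459). Both met the low-count filter through the KO-labelled libraries alone. The genes were picked by the same difference between the groups, so these p-values are no separate evidence of it.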
